A study of Mus musculus with 12 samples.

Results

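The vascular endothelial growth factor (VEGF) family was examined in mouse yolk sacs with ectopic Norrin and in wild type yolk sacs: the ligands Vegfa, Vegfb, Vegfc and Pgf, the receptors Flt1, Kdr and Flt4, and the neuropilins Nrp1 and Nrp2. These 9 genes, of 18193 measured, were read on Affymetrix mouse expression arrays. They were found as the 22 probe sets, of 45101, that the platform annotation assigns to 1 of these genes alone. For each gene the probe set with the highest mean over the 12 arrays stands for it, and the 13 others are given beside it. No probe set combined a member with another gene.

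VEGF ligands are secreted dimers that bind receptor tyrosine kinases on endothelial cells. Kdr (VEGF receptor 2) carries most of the signal of Vegfa for endothelial growth and migration. Flt1 (VEGF receptor 1) binds Vegfa tightly but signals weakly, and is also made as a soluble form that holds ligand away from Kdr. Flt4 (VEGF receptor 3) is the main receptor of Vegfc, while Vegfb and Pgf bind Flt1. Nrp1 and Nrp2 are coreceptors for VEGF and for class 3 semaphorins. In the yolk sac this system is needed for the first blood islands and vessels.

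Yolk sacs were compared in 4 groups of 3 arrays: wild type at embryonic day (E) 8.5, Z/Norrin at E8.5, wild type at E10.5 and Z/Norrin at E10.5. Z/Norrin mice carry a conditional over-expression allele for Norrin, the ligand of the receptor Frizzled4, which signals through beta-catenin; they are called Norrin here. Each array held RNA pooled from 3 to 5 yolk sacs of mixed sex on a C57Bl6/129 mixed background. Which Cre driver acted on the allele, in which cells, and whether wild type animals carried it, is not stated in the labels. The probe set of Ndp, the gene of Norrin, lay between 4.45 and 4.68 (log2) in all 12 pools, and whether it covers the transgene is unknown, so it does not check the labels. The labels do not say that the pools came from separate litters, so p-values measure the spread between these pools.

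The tissue matched its label: the visceral endoderm gene Afp lay between 12.99 and 14.78 and the embryonic globin Hbb-bh1 between 13.85 and 14.69 in all pools, and the endothelial genes Cdh5 and Tek between 7.78 and 9.38 and between 8.51 and 10.40. The median log2 value of an array was 6.59 to 6.73 for E8.5 pools and 6.97 to 7.01 for E10.5 pools. Arrays of a stage shared 26 to 93 identical values per pair and arrays of different stages 0. The stages thus look separately normalized, and stage and normalization run cannot be told apart. A pair of pools stood apart by trophoblast markers, of which 8 of 14 were measured. In Norrin replicate 2 at E10.5, Tpbpa was at 11.90, Ctsq at 9.67 and Prl7a2 at 9.32, against 5.63 to 6.55, 5.69 to 6.19 and 3.37 to 3.87 in the other E10.5 pools. In Norrin replicate 2 at E8.5, the trophoblast list lay 0.76 above the wild type mean in its median, against -0.30 to -0.01 in the other E8.5 pools. Results for the VEGF genes are therefore also given without these Norrin pools. Single markers were high in wild type pools too. At E10.5 Prl7a1 was at 8.58 in wild type replicate 2 and Tfap2c at 8.53 in wild type replicate 3. In wild type replicate 1 of E8.5 these genes were at 8.25 and 8.27. The visceral endoderm gene Alb was at 12.85 in wild type replicate 2 of E10.5, against 8.82 and 9.06 in the other wild type pools of that stage.

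At E10.5, 1 VEGF family gene changed past the threshold with Norrin: Flt1 rose 3.22-fold. Its share is 1 of 9, against 1.85% of all genes called higher. At E8.5 limma called 0 of 9. Without adjustment, 1 member (Vegfc) was under 0.05 at E8.5 and 2 (Flt1 and Vegfa) at E10.5, against 7.22% and 14% of all genes. The threshold was an adjusted p of 0.05, Benjamini-Hochberg over all 18193 genes, at which 0.077% of all genes were called for the E8.5 comparison and 4.07% for E10.5. The median log2 change of the 9 genes was -0.08 at E8.5 and 0.22 at E10.5, against -0.02 and 0.00 over all genes. The Norrin pools lay wholly above or below the wild type pools for 1 of 9 genes at E8.5 and for 3 of 9 at E10.5. Over all genes the shares were 11.9% and 22.9%. When same-numbered pools of a stage were paired by a replicate block, 1 member was called at E8.5 (Vegfc) and 3 at E10.5 (Flt1, Vegfa and Vegfc). With that block 1.41% of all genes were called at E8.5 and 13.2% at E10.5. Without Norrin replicate 2 of the stage, the counts stayed at 0 and 1. Of all 18193 genes, 1 was then called at E8.5 and 580 at E10.5, so 0 of 9 at E8.5 says little about the members.

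**Figure D1:**
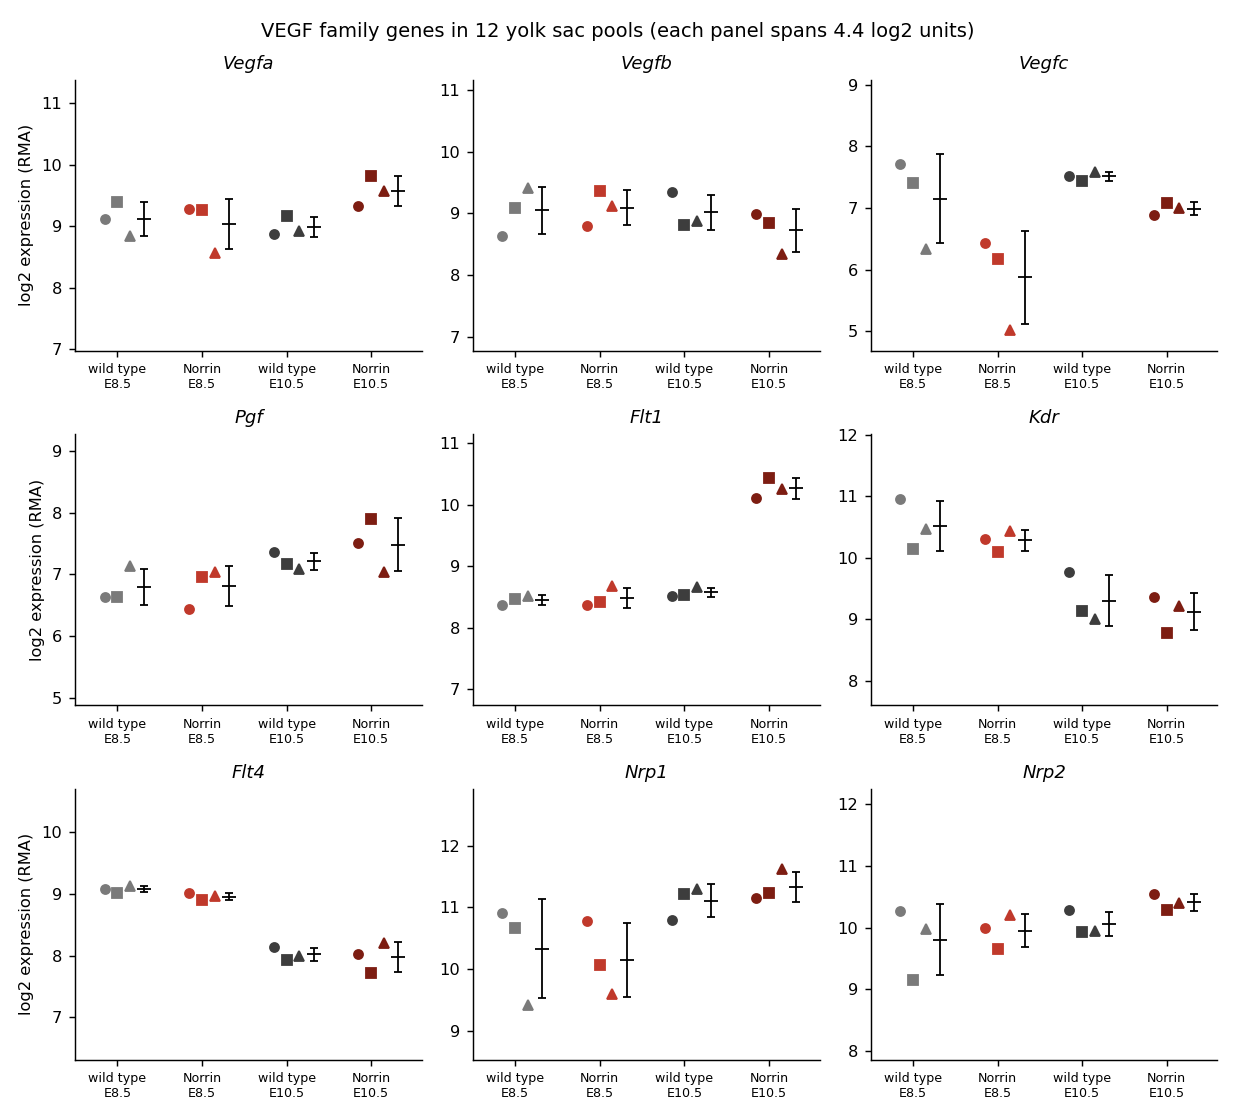
Log2 expression (RMA, vertical axis) of each VEGF family gene in the 12 pools, by group (horizontal axis); circles, squares and triangles are replicates 1, 2 and 3, and the bar beside each group is its mean ± SD. Flt1 lies between 10.10 and 10.44 in the Norrin pools of E10.5 and between 8.36 and 8.67 in the other 9.

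Flt1 lay in 1 narrow band in 3 of the groups and high in the Norrin pools of E10.5. At E8.5 its log2 values were 8.36, 8.47 and 8.52 in wild type and 8.36, 8.41 and 8.67 in Norrin. At E10.5 they were 8.52, 8.54 and 8.66 in wild type and 10.10, 10.44 and 10.25 in Norrin. The groups overlapped at E8.5 and were far apart at E10.5. The Norrin effect was 0.03 (SE 0.13, 95% interval -0.24 to 0.31, adjusted p = 0.958 by limma) at E8.5 and 1.69 (SE 0.13, 1.42 to 1.96, adjusted p = 2.9e-05) at E10.5, the latter with the 7th lowest p of all genes. The effects themselves differed by 1.65 (SE 0.18, adjusted p = 0.0030), and 0.0934% of genes were called for such a difference. Without Norrin replicate 2 at E10.5 the effect was 1.60 (adjusted p = 0.00015).

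All 4 Flt1 probe sets showed the rise at E10.5. The chosen one is 1451756_at. By 1419300_at wild type lay at 8.10, 7.86 and 7.77 and Norrin at 8.95, 9.14 and 9.04, an effect of 1.14 (SE 0.23). The effects were 1.84 by 1454037_a_at and 1.85 by 1440926_at. Adjusted over all named probe sets, the p-values of the 3 other probe sets ran from 0.00039 to 0.022. At E8.5 the 4 effects ran from -0.11 to 0.37, and the lowest adjusted p was 0.790. The difference between the stages was 1.25 by 1419300_at, 1.46 by 1454037_a_at and 1.63 by 1440926_at. Its adjusted p by limma was 0.321, 0.151 and 0.040, so only the last of these passed. Which of the membrane or soluble transcripts each probe set detects was not settled here.

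**Figure D2:**
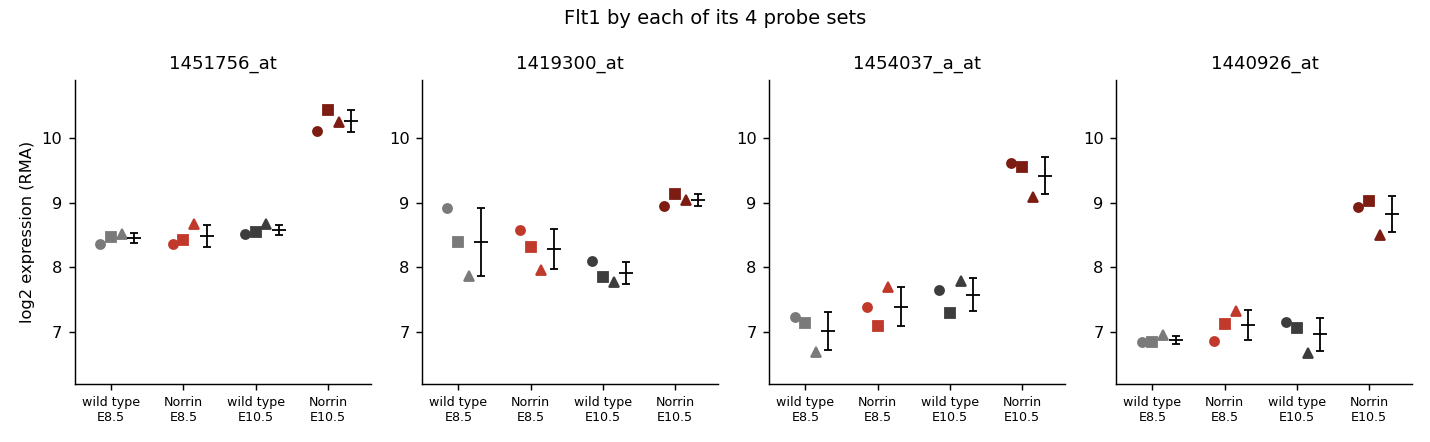
Log2 expression (RMA, vertical axis) of Flt1 by each of its 4 probe sets in the 4 groups (horizontal axis), with replicates as circles, squares and triangles and mean ± SD beside them. In every panel the 3 Norrin pools of E10.5 lie above the 3 wild type pools of E10.5.

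The Flt1 gene lies on mouse chromosome 5 (GRCm38.p6, 147561604 to 147726438, minus strand). The 250 bases before its start in the RefSeq promoter table, and those before the starts of Vegfa and Vegfc, are shown because the values of these 3 genes carry the results at E10.5 and E8.5. They are written 5′ to 3′ on the gene's strand, and capitals mark every match, on either strand, to any of 6 motifs. The ETS core was searched as GGAAG. The cyclic AMP response element was searched as TGACGTCA. The TATA box was searched as TATAAA and the GATA core as AGATAA. The hypoxia response core was searched as ACGTG and the TCF/LEF core as CTTTGAT. No 2 matches overlapped in these 3 windows.
Flt1, chr5:147726012-147726261, minus strand: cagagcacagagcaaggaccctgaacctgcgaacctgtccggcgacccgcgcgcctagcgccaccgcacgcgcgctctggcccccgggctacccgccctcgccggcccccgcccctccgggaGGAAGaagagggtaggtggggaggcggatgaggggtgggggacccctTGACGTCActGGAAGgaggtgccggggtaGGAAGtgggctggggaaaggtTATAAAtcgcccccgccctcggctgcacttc
Vegfa, chr17:46032378-46032627, minus strand: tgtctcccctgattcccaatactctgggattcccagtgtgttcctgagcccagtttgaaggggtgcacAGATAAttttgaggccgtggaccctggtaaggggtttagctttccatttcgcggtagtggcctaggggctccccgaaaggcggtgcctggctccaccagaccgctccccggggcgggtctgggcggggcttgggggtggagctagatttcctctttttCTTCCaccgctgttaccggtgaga
Vegfc, chr8:54077282-54077531, plus strand: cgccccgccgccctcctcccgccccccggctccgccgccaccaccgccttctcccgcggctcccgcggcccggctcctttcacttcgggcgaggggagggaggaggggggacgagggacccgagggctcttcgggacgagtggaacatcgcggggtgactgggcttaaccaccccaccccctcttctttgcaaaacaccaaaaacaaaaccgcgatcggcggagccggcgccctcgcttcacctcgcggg
In the Flt1 window GGAAG stood at -128, -71 and -52, TGACGTCA at -81 and TATAAA at -31 from the start. Of 32851 promoter windows of this length, 64.1% held GGAAG, 1.55% TGACGTCA and 12.4% TATAAA. The RefSeq gene of Flt1 reaches 427 bases upstream of the transcript start that this window precedes. The window thus lies inside the annotated gene, and other transcripts begin further upstream. The Vegfa window shown, before the outermost start of the gene, held AGATAA (9.99% of windows) at -182 and the reverse complement of GGAAG at -24. The table has another Vegfa window, chr17:46025164-46025413, before a start inside the gene. It held the reverse complement of ACGTG at -211, the 1 match to that motif (16.6% of windows) in the 11 member windows, and GGAAG at -10. The Vegfc window held none of the 6 motifs. CTTTGAT (3.21%) was in none of the Vegfa, Vegfc and Flt1 windows.

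Kdr and Flt4, the other receptors, were not called at either stage. Kdr was at 10.95, 10.14 and 10.46 in wild type and 10.31, 10.10 and 10.44 in Norrin at E8.5. At E10.5 it was at 9.77, 9.14 and 9.01 in wild type and 9.36, 8.78 and 9.23 in Norrin. The groups overlapped at both stages. The effects were -0.24 (95% interval -0.76 to 0.29) and -0.18 (-0.71 to 0.34), with adjusted p of 0.823 and 0.892. Flt4 was at 9.08, 9.03 and 9.13 in wild type and 9.01, 8.90 and 8.97 in Norrin at E8.5, where the Norrin pools lay just below. At E10.5 it was at 8.14, 7.93 and 8.0 and at 8.02, 7.72 and 8.20, overlapping. Its effects were -0.12 (-0.40 to 0.16) and -0.04 (-0.32 to 0.24). The second Flt4 probe set gave -0.19 and -0.17.

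Flt1 thus moved apart from the other receptors within the same arrays. Relative to Kdr, and taking the wild type mean of E10.5 as 0, Flt1 lay at -0.52, 0.14 and 0.39 in the wild type pools and at 1.48, 2.38 and 1.75 in the Norrin pools. Relative to the mean of 28 pan-endothelial genes it lay at -0.21, 0.17 and 0.04 and at 1.43, 2.34 and 1.71. At E8.5 the Norrin pools ran from 0.03 to 0.26 on that scale and the wild type pools from -0.19 to 0.13. In whole yolk sac, a change in the number of cells of a type and a change in RNA per cell cannot be told apart.

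**Figure D3:**
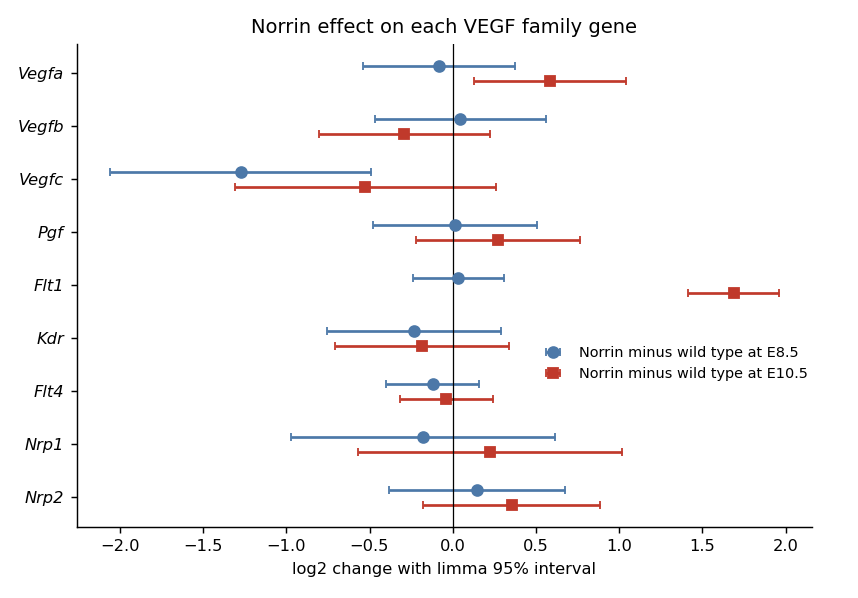
Norrin minus wild type (log2, horizontal axis) for each VEGF family gene (vertical axis) at E8.5 (circles) and E10.5 (squares), with limma's 95% interval. The E10.5 interval of Flt1, 1.42 to 1.96, lies to the right of all others.

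Among the ligands, Vegfa was higher in every Norrin pool of E10.5 without passing the threshold. At E8.5 its values were 9.12, 9.40 and 8.84 in wild type and 9.28, 9.27 and 8.57 in Norrin. At E10.5 they were 8.87, 9.17 and 8.92 in wild type and 9.33, 9.81 and 9.56 in Norrin, with no overlap. The effect at E10.5 was 0.58 (SE 0.21, 95% interval 0.13 to 1.04, adjusted p = 0.184 by limma; 0.0067 with the replicate block). Same-numbered pools differed by 0.47, 0.65 and 0.64. Its second probe set, 1451959_a_at, gave 0.56 (SE 0.13), with an adjusted p over all named probe sets of 0.036. With the mean of both probe sets Vegfa was called. Without Norrin replicate 2 at E10.5, the pool with trophoblast markers, the effect was 0.46 (adjusted p = 0.449).

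Vegfc had the lowest unadjusted p of the family at E8.5 and lay lower in Norrin in each same-numbered pair. Its values were 7.72, 7.40 and 6.34 in wild type and 6.43, 6.18 and 5.02 in Norrin. The probe set is dim: its mean over the 12 arrays, 6.88, lay under the median over genes, 7.68. Whether its lowest values exceed background is unknown. The groups overlapped, since wild type replicate 3 lay below Norrin replicate 1, yet the 3 pairs differed by -1.28, -1.22 and -1.32. The SD of the pair differences was 0.05, against 0.72 and 0.76 among the pools of a group. The effect was -1.27 (SE 0.36, 95% interval -2.06 to -0.49, adjusted p = 0.406 by limma; 0.00084 with the replicate block). The other probe sets gave -1.04 and -1.11. Their pairs differed by -1.5, -1.43 and -0.19 and by -1.42, -1.11 and -0.79, so that replicate 3 showed less difference there.

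At E10.5 Vegfc was at 7.52, 7.44 and 7.59 in wild type and at 6.88, 7.09 and 7.0 in Norrin. The Norrin pools lay below all wild type pools. The effect was -0.52 (SE 0.36, adjusted p = 0.645 by limma; 0.0062 with the replicate block), and the other probe sets gave -0.28 and -0.54. The effects of the stages differed by 0.75 (adjusted p = 0.864; 0.024 with the block, at which 2.07% of all genes were called). Without Norrin replicate 2 of the stage the effects were -1.43 at E8.5 and -0.57 at E10.5. With 1 pool left out the E8.5 effect ran from -1.68 (without wild type replicate 3 of E8.5) to -0.84 (without Norrin replicate 3 of E8.5), and the difference between the stages from 1.16 to 0.32 without the same pools.

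**Figure D4:**
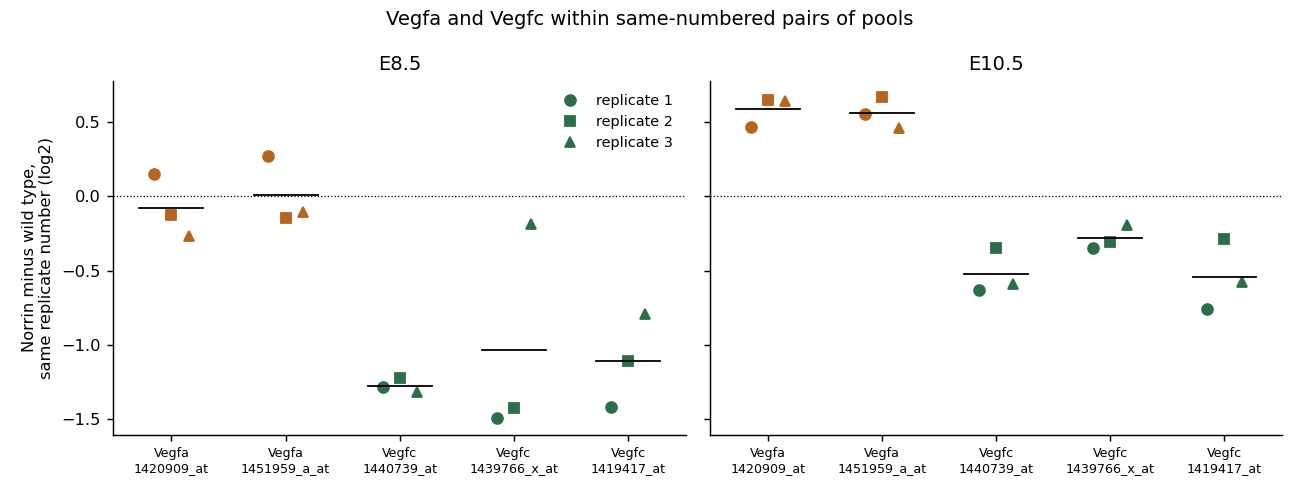
Norrin minus wild type between pools of the same replicate number (log2, vertical axis) for the 2 probe sets of Vegfa and the 3 of Vegfc (horizontal axis), at E8.5 and at E10.5; symbols are replicates and lines their mean. All Vegfc differences lie below 0 at both stages, and all Vegfa differences of E10.5 above 0.

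Pgf and Vegfb, the ligands of Flt1 alone among these receptors, were not called. Pgf was at 6.63, 6.64 and 7.13 in wild type and 6.44, 6.96 and 7.04 in Norrin at E8.5, and at 7.36, 7.18 and 7.10 and at 7.51, 7.89 and 7.04 at E10.5. Its highest value was in Norrin replicate 2 at E10.5, the pool with trophoblast markers. The effect at E10.5 was 0.27 (95% interval -0.22 to 0.76) with that pool and 0.07 (adjusted p = 0.993) without it. Vegfb had effects of 0.05 (-0.47 to 0.56) and -0.29 (-0.81 to 0.22), with adjusted p of 0.972 and 0.730.

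The neuropilins varied widely between pools of a group. Nrp1 was at 10.91, 10.66 and 9.41 in wild type and at 10.78, 10.06 and 9.59 in Norrin at E8.5, low in replicate 3 of both. At E10.5 it ran from 10.80 to 11.30 and from 11.15 to 11.62. Its effects were -0.18 (95% interval -0.97 to 0.61) and 0.22 (-0.57 to 1.02), and those of its 3 other probe sets ran from -0.02 to 0.14 and from 0.05 to 0.19. Nrp2 was at 10.29, 9.93 and 9.95 in wild type and at 10.55, 10.28 and 10.41 in Norrin at E10.5, with 1 wild type pool above 1 Norrin pool. Its effects were 0.15 (-0.39 to 0.68) and 0.35 (-0.18 to 0.88, adjusted p = 0.648). Of its 3 other probe sets, 1456778_at gave 0.56 at E10.5 (adjusted p over all named probe sets 0.028) and the others 0.39 and 0.29.

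Between the stages, Kdr and Flt4 were lower at E10.5 and the other 7 genes were not called in wild type, each by its chosen probe set. These differences carry the apparent separate normalization of the stages, which the labels do not state. The median of all genes differed by 0.14 in wild type and 0.15 in Norrin. After centring each array on its median it differed by -0.16 and -0.21. In wild type 32.5% of genes were called (7.12% lower), 4619 higher and 1296 lower, or 2340 and 4816 after centring. In Norrin 37.9% were (28.2% higher, 9.69% lower), 5133 higher and 1762 lower, or 2345 and 5943 after centring. Kdr fell by 1.21 (SE 0.24, adjusted p = 0.0025 by limma) in wild type and by 1.16 (adjusted p = 0.0027) in Norrin, and by 1.51 and 1.52 after centring. Flt4 fell by 1.06 and 0.98 by its chosen probe set, while its other probe set, 1421442_at, gave 0.02 and 0.03. The fall of Flt4 thus rests on 1 of 2 probe sets.

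In Norrin pools, 4 genes were higher at E10.5: Flt1 by 1.78, Nrp1 by 1.18, Vegfc by 1.11 and Pgf by 0.67. After centring only Flt1 of these was called (1.42), and Vegfc, Pgf and Nrp1 were not (0.76, 0.31 and 0.83). Vegfb, not called before centring (-0.37), was then called lower (-0.73, adjusted p = 0.0208 by limma), beside Kdr and Flt4. Other probe sets of Nrp1 gave 0.11 to 0.40. For Vegfc the levels of the groups ran in the order Norrin E8.5 at 5.88 ± 0.76 (SD, n = 3), Norrin E10.5 at 6.99 ± 0.10, wild type E8.5 at 7.15 ± 0.72 and wild type E10.5 at 7.51 ± 0.07. By this chosen probe set the lowest pair of neighbours was called apart and the highest pair was not. The middle pair was not tested, and the other probe sets gave it in reverse order. Wild type E8.5 and Norrin E10.5 lay at 6.64 and 7.22 by 1439766_x_at and at 6.46 and 6.76 by 1419417_at. By 1419417_at the wild type stages differed by 0.84 (adjusted p over all named probe sets 0.024 by limma). For Kdr the order was Norrin E10.5 at 9.12 ± 0.30, wild type E10.5 at 9.31 ± 0.41, Norrin E8.5 at 10.28 ± 0.17 and wild type E8.5 at 10.52 ± 0.41, with genotypes of a stage not called apart and the middle pair not tested. In wild type the difference of Flt1 between stages was 0.12, turned to -0.17 by centring, and its other probe sets gave -0.49, 0.56 and 0.09.

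Genes that act with the VEGF receptors were called at E10.5 at about the share of all genes, 4.07%. With the replicate block the share of all genes was 13.2%. Of 20 partners (VEGF-processing proteins, semaphorins, plexins and receptor-bound proteins), limma called 0 at E8.5 (0 unadjusted) and 1 rose at E10.5, or 4 rose and 1 fell with the block. It was Sema3e, a semaphorin that binds the plexin Plxnd1 on endothelium, at 6.74, 6.83 and 7.06 in wild type and 7.42, 8.12 and 7.55 in Norrin (0.82, adjusted p = 0.0215; 0.054 without Norrin replicate 2 at E10.5). The list's median was 0.11. Of 30 signal transducers measured, 0 were called at E8.5 (0 unadjusted) and 1 fell at E10.5, or 3 with the block: Shc1, an adaptor of receptor tyrosine kinases, by 0.72 (adjusted p = 0.031; 0.0998 without that pool). Their median was -0.04.

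Of 18 genes that VEGF induces in endothelium, Pgf among them, 0 were called at E8.5 by limma (1 unadjusted). At E10.5 2 rose and 1 fell (6 unadjusted), or 4 and 1 with the block. Of all genes 0.077% were called at E8.5 and 4.07% at E10.5, or 13.2% at E10.5 with the block. Unadjusted, the shares of all genes were 7.22% and 14%. The immediate early factor Egr1 rose by 2.03 (adjusted p = 0.0153) and the metalloproteinase Adamts1 by 0.98 (adjusted p = 0.0104); without that pool the adjusted p were 0.0496 and 0.039. Nrarp, a feedback regulator of Notch, fell by 0.50 (adjusted p = 0.0475; 0.148 without it). The median was 0.19. The Notch ligand Dll4 had an effect of 0.13, Apln 0.36 and Angpt2 0.21 at E10.5, and Esm1 1.5 (adjusted p = 0.0771), none of them called.

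Marker lists gave the setting of the Flt1 value. Of all genes, 0.077% were called at E8.5 and 4.07% at E10.5, or 1.41% and 13.2% with the block. Of 28 pan-endothelial genes, 0 were called at E8.5 by limma (2 unadjusted; Plvap at -0.78, adjusted p = 0.0395 with the block). At E10.5, 0 rose and 2 fell, Tal1 (-1.65) and the diaphragm protein Plvap (-0.99), or 3 rose and 4 fell with the block. Tal1 is also counted in the erythroid list below. The median of the 28 genes was -0.05. Their mean log2 level ran from 8.32 to 8.68 in wild type and from 8.04 to 8.62 in Norrin at E10.5. Of 21 hypoxia-responsive genes measured, 0 were called at E8.5 (3 unadjusted; P4ha1 at 0.73, adjusted p = 0.0104 with the block) and 9 rose at E10.5 (15 rose and 1 fell with the block; 4 and 1 without Norrin replicate 2). The median was 0.71, and Ddit4 and Egln3 rose by 2.02 and 1.99. The mean level of this list ran from 9.63 to 9.93 in wild type and from 10.39 to 10.80 in Norrin, highest in replicate 2, where the chosen probe sets of Flt1 and Vegfa were also highest. The Vegfa probe set 1451959_a_at and the Flt1 probe set 1454037_a_at were highest in replicate 1. Its part in the Flt1 and Vegfa values was not tested.

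Of 8 trophoblast genes, which stand for a tissue that makes Flt1 and Pgf, 0 were called at either stage by limma (1 unadjusted at each). Of all genes 0.077% were called at E8.5 and 4.07% at E10.5, or 13.2% at E10.5 with the block. Unadjusted, the shares were 7.22% and 14%. A count of 0 of 8 thus says little, here and for the decidual genes below. The mean level of the trophoblast genes ran from 6.23 to 6.49 in wild type at E10.5 and was 6.51, 8.94 and 6.40 in Norrin replicates 1 to 3. Flt1 lay at 10.10, 10.44 and 10.25 in these Norrin pools. Plac1 was at 10.28, 10.67 and 10.11 in them, against 7.83 to 9.45 in wild type. Plac1, the member with the lowest p, gave 1.14 at E8.5 and 1.47 at E10.5 (adjusted p = 0.597 and 0.0756). Of 8 decidual genes 0 were called (1 unadjusted at each stage, and 1 higher at E10.5 with the block). Their mean levels at E10.5 ran from 7.17 to 7.26 in wild type and were 7.798, 7.264 and 7.805 in Norrin replicates 1 to 3. Bmp8a gave -0.29 at E8.5. Prl8a2 gave 1.70 at E10.5 (adjusted p = 0.26 by limma, or 2.63 and 0.0139 without Norrin replicate 2). At E10.5 Prl8a2 was at 9.84, 7.24 and 10.23 in Norrin and at 6.975, 7.695 and 7.551 in wild type. Among the E10.5 pools it was thus highest in Norrin replicates 1 and 3. At E8.5 Prl8a2 was at 9.42, 10.56 and 8.92 in wild type and at 8.65, 10.26 and 9.46 in Norrin. The part of these values in Flt1 was not tested.

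RNA of markers of other cell types also differed in the Norrin pools of E10.5, with the fewest calls for macrophage genes. Of all genes 4.07% were called, 13.2% with the block, and 580 of 18193 without Norrin replicate 2. Of 13 parietal endoderm genes 4 rose, 7 with the block, including Pth1r (2.45), the plasminogen activator Plat (2.15), Col4a2 (1.23) and Col4a1 (0.61). Their mean level ran from 10.13 to 10.19 in wild type and from 10.78 to 10.97 in Norrin. Of 15 mesenchyme and smooth muscle genes 4 rose: Pdgfra (1.89), Tagln (1.42), Vim (0.55) and Acta2 (0.54), 1 of them without Norrin replicate 2; mean levels ran from 10.33 to 10.44 and from 10.73 to 10.87. Of 22 visceral endoderm genes 5 fell (11 fell and 2 rose with the block), among them the apolipoproteins Apom (-1.40), Apoc2 (-1.22), Apoa4 (-0.94) and Apoa1 (-0.78); mean levels ran from 12.54 to 12.82 and from 12.14 to 12.21. Of 14 erythroid genes 9 fell, 5 without Norrin replicate 2, led by Hemgn (-2.08), Klf1 (-1.83), Tal1 (-1.65) and Alas2 (-1.64), with mean levels of 10.32 to 11.47 and 9.64 to 9.69. Of 15 macrophage genes 1 fell (Fcgr3, -1.98), with overlapping mean levels of 7.67 to 8.15 and 7.24 to 7.99. The part of these shifts in the Flt1 value was not tested.

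At E8.5 these lists held 1 call, Apoa4 (-1.18, adjusted p = 0.0449; 0.190 without Norrin replicate 2). With the replicate block, which called 1.41% of all genes, 8 visceral endoderm genes were called at E8.5, 6 lower and 2 higher. The members with the lowest p in the others were Col4a2 (0.61), Pdgfra (1.54, adjusted p = 0.0305 with the block), Rhag (-1.06) and Adgre1 (-0.54).

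**Figure D5:**
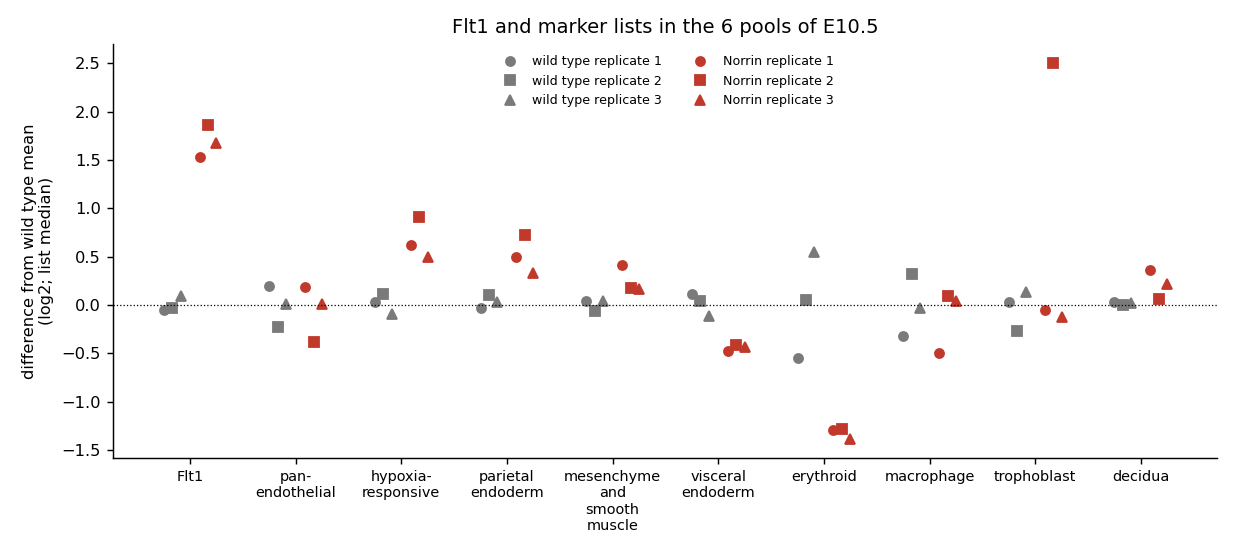
Difference of each E10.5 pool from the wild type mean (log2, vertical axis) for Flt1 and for the median of each marker list (horizontal axis); grey is wild type, red is Norrin, and symbols are replicates. Flt1 is high in all 3 Norrin pools, the trophoblast median in replicate 2 alone (2.50), and the pan-endothelial medians lie between -0.38 and 0.20.

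The 5 genes most like Flt1 were Plod2, Rhob, Ccn1, Phf11d and Fut8. Likeness was the root mean square difference of log2 values over the 12 arrays after subtracting each stage's mean, and it ran from 0.26 to 0.28. Their Norrin effects were between -0.09 and 0.32 at E8.5. At E10.5 Plod2, a collagen lysyl hydroxylase, had 1.31, the small GTPase Rhob 1.24, the matrix protein Ccn1 1.61, Phf11d 1.08 and the fucosyltransferase Fut8 1.15. All 12 arrays also shared their pools' other differences, so the likeness is a description.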

How the data were processed

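RNA of 12 yolk sac pools was hybridised to 12 arrays. The authors deposited log2 values, 1 per probe set. The submitters' processing notes list RMA without a version. That method corrects background, quantile-normalizes and summarises probes by median polish, which compresses changes of dim or bright probe sets. Scanner files were not used here. Array number, with no read depth, limits the precision. Of 45101 probe sets, 34945 had 1 gene in the platform annotation, 932 several and 9160 none; 64 controls and those without 1 gene were left out, and 34741 matched RefSeq (GRCm38.p6) by gene ID. The probe set with the highest mean stood for each of 18193 genes.

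limma 3.58.1 (R 4.3.3; lmFit, contrasts.fit, eBayes) was fitted with 1 mean per group over 12 arrays (8 residual and 4.17 prior degrees of freedom), two-sided, with Benjamini-Hochberg adjustment over all genes and a threshold of 0.05. Fold changes are 2 to the power of the log2 difference. The fit was tested on simulated data. Promoter windows came from RefSeq (all 9 genes matched). The members and gene lists were chosen with earlier results of these data known. Named were all members, up to 4 called genes per list and Norrin effect with the largest change (otherwise the 1 with the lowest p), and the 5 genes most like a called member, whose mean reached the median over genes, 7.68, with predicted genes passed over. Counts adjusted over a list alone are not given.

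Pairing by replicate number was judged by how deviations from the group means correlated across genes. Same-numbered pools of a stage gave 0.73, 0.32 and 0.73 (replicates 1 to 3 of E8.5) and 0.51, 0.21 and 0.22 (E10.5). Differently numbered E8.5 pools gave -0.72 to 0.30, the highest for wild type 2 with Norrin 1. For E10.5 pools the range was -0.35 to 0.16, the highest for wild type 2 with Norrin 3. The pairing was thus clear for replicates 1 and 3 of E8.5 and replicate 1 of E10.5. It was weakly backed for replicate 2 of E8.5 and replicates 2 and 3 of E10.5. A pairing by number within a stage is printed where it changes a call, and such calls rest on this pairing. Alternatives were other scalings, blocks, probe set choices, a filter, array weights, an intensity trend, single-stage or single-genotype fits and each array left out. The list counts with the block or without a replicate 2 were chosen after seeing the data.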

Additional observations from a re-analysis of the deposited data

Results flagged for a closer look

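The Norrin effect on Flt1 differed between the stages by its chosen probe set. The other probe sets gave differences of 1.25, 1.46 and 1.63, with adjusted p over all named probe sets of 0.321, 0.151 and 0.040 by limma. By the chosen probe set the effect was 1.65 (log2, SE 0.18, adjusted p = 0.0030 by limma's test of the difference) larger at E10.5 than at E8.5. It was 1.69 against 0.03, and Flt1 was higher in 3 of 3 Norrin pools of E10.5. For Adamts1, a metalloproteinase that VEGF induces, the effects differed by 1.62 (adjusted p = 0.0463 by limma), close to the threshold. They were 0.98 at E10.5 and -0.64 at E8.5, and the E8.5 effect was not called (adjusted p = 0.416 by limma).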

How the results depend on the processing

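The rise of Flt1 at E10.5 stayed past the threshold under every alternative run, at 1.60 to 1.77 with 1 array left out and 1.63 to 1.74 otherwise. With the replicate block, which pairs same-numbered pools of a stage, 257, 2400 and 376 genes were called for the Norrin effects at E8.5 and E10.5 and their difference, against 14, 741 and 17, and 1, 3 and 2 VEGF genes against 0, 1 and 1; Vegfc and Vegfa are the additions, and no other VEGF gene's call changed. A block across the stages left 5 genes at E8.5, and a fit on the arrays of 1 stage 0 genes at E8.5 and 2 VEGF genes at E10.5. Array weights gave 5147, 2316, 2728, 10797 and 11639 genes for the Norrin effects at E8.5 and E10.5, their difference and the stage differences of wild type and Norrin (the last 2 against 5915 and 6895), with 3, 2 and 2 VEGF genes for the first 3 and 6 for the wild type stage difference, against 2. Only genes at or above the median level gave 472, 3, 1918 and 2641 calls, for E10.5, the difference and the stage differences. The mean of a gene's probe sets gave 37 genes for the difference and 2 VEGF genes at E10.5, and quantile normalization 29 genes for the difference. With 1 array left out, 1 to 20 genes were called at E8.5 (1 without Norrin replicate 2), 353 to 894 at E10.5 (353 without Norrin replicate 3 of E10.5), 5 to 36 for the difference, 4311 to 6285 and 5242 to 7629 for the stage differences, and 0, 1 and 1 VEGF genes for the Norrin effects and their difference. The cause of these shifts was not tested. No block within a stage applies to stage differences, and no 1-stage fit to the difference of effects. No detection calls were used, so signal over background is unknown.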
